A study of Mus musculus with 12 samples.

Results

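Gm14207, Exd1, Adal, Spg11 and Cd59a are 5 genes of mouse chromosome 2 that lie near Thbs1, the gene of thrombospondin 1 (TSP-1), and whose colon transcripts differed in the same direction between TSP-1-/- and wild-type (WT) mice in 2 separate pairs of groups. Each is read by 1 probe, so they make up 5 of the 28853 probes on the array and 5 of the 19938 genes that have a probe with a single gene symbol. They were chosen by these same genotype differences, so the differences are described here without a test.

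The study asked how loss of TSP-1 alters inflammation-driven tumors of the colon. Colon RNA of 12 C57BL/6 mice was hybridized to 12 mouse gene arrays, with 4 groups of 3 mice. The paper reports RNA of normal and diseased colon and calls the AOM/DSS samples tumors in its heatmap legend. It does not give the share of tumor in each sample. The first pair of groups, WT and TSP-1-/- males that were 7 weeks old at the start, received a single injection of the carcinogen azoxymethane (AOM, 10 mg/kg) and 4 cycles of 7 days of 1.5% dextran sodium sulfate (DSS) in the drinking water, and were killed 15 weeks after AOM. WT and TSP-1-/- mice of the second pair drank water only; their labels carry the protocol of another DSS experiment and give no age. The TSP-1-/- mice carry a targeted mutation within Thbs1 that prevents the protein from being made, while the gene can still be transcribed, so a Thbs1 probe does not check the genotype. Each value is a log2 value relative to a baseline of its probe, and the baselines of the AOM/DSS and water arrays differ, so genotypes were compared only within each set. Such relative values hold no absolute level, and the identity of the tissue could not be read from the level of colon markers.

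A mouse line made by gene targeting keeps DNA of the embryonic stem cell strain around the targeted site, because neighbouring DNA is inherited together and repeated backcrossing shortens the stretch only slowly. Genes on such a stretch can carry variants that alter their transcription or the match between a transcript and an array probe. Which strain supplied the DNA around Thbs1 in these mice is not given in the sources used here, and its part in the differences below was not tested. In bulk tissue, fewer cells of a type and less RNA per cell cannot be told apart.

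The 5 genes have unrelated roles. Gm14207 is a long noncoding RNA gene that starts inside Dll4, the gene of an endothelial Notch ligand, on the opposite strand, and overlaps it by 414 bases. Cd59a encodes a membrane-anchored inhibitor of the complement attack complex. Adal encodes a deaminase related to adenosine deaminase. Exd1 is known for its part in making PIWI-interacting RNAs in germ cells. Spg11 encodes spatacsin, which helps to rebuild lysosomes and is mutated in a hereditary spastic paraplegia.

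On the assembly GRCm38.p6, Gm14207 starts 1.21 Mb from the start of Thbs1, with Exd1 at 1.4 Mb, Adal at 3.03 Mb and Spg11 at 3.94 Mb on the same side. Counted in genes with a probe of a single symbol, they are 29, 33, 67 and 86 genes away. Cd59a lies on the other side of Thbs1, 14.0 Mb and 100 such genes away, and stands apart from the other 4.

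The windows just before the starts of Gm14207 and Cd59a, the lower genes with the largest differences, were read from RefSeq and are unlike each other in base composition. The Gm14207 window, chr2:119326198-119326447 on the minus strand, lies within Dll4. The Cd59a window, chr2:104095551-104095752 on the plus strand, was cut to end at the base before the annotated gene. The uncut RefSeq window runs on to 104095800, inside the gene, and is 44.8% G or C. Capitals mark a GC box (GGGCGG) and a CCAAT box (read on the other strand as ATTGG), both searched on both strands together with TATAAA and AAGATGGC.
Gm14207: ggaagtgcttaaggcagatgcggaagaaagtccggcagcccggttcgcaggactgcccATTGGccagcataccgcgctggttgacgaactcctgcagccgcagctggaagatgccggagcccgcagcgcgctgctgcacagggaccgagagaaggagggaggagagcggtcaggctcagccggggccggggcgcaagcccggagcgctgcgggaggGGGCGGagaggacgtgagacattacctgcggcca
Cd59a: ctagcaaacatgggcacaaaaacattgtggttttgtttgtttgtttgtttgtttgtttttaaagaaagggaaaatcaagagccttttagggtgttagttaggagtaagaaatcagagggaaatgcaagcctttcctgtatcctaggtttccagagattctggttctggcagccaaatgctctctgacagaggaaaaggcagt
The 250 bases before Gm14207 are 68.0% G or C with 23 CpG, against a median of 52.4% and 6 CpG over 32851 promoter windows of that length. The 202 bases before Cd59a are 40.1% G or C and hold no CpG and none of the motifs searched. A GC box stands in 32.7% of all windows, a CCAAT box in 33.8%, TATAAA in 12.4% and AAGATGGC in 1.56%, so the matches before Gm14207 are of a common kind. Exd1 shares the GC-rich pattern, with 68.0% and 21 CpG before its annotated start, on the minus strand. The RefSeq windows given for Spg11 and Adal lie inside the annotated span of each gene, before a start within it, so they are not described as windows before the gene.

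Across the whole array, more probes separated TSP-1-/- from WT mice after AOM/DSS than on water. A probe was called where limma gave an adjusted p under 0.05 and the groups differed 2-fold or more. After AOM/DSS 802 of 28853 probes were called (2.78%) and 32.3% had an unadjusted p under 0.05, against 0 of 28815 on water (0.0%), where 288 had an unadjusted p under 0.05 (0.999%). The count of 802 was 104 without WT AOM/DSS replicate 3, 170 without TSP-1-/- AOM/DSS replicate 3 and 6 when the 6 AOM/DSS arrays were fitted alone. Some arrays stood apart. The median of 9 neutrophil genes was 1.83 to 2.98 on the TSP-1-/- AOM/DSS arrays and -0.407 to 0.0045 on the WT ones. On water it was 0.348 on TSP-1-/- replicate 1 and -2.93 to -1.98 on the other 5 arrays. The median of 9 colon epithelium genes was 0.068 to 0.189 on the WT AOM/DSS arrays and -0.755 to -0.0613 on the TSP-1-/- ones. It was thus lower in TSP-1-/- mice, as Gm14207, Spg11 and Cd59a were, and on water the genotypes overlapped. After AOM/DSS 1 of these 9 genes, Car1, was called lower, where 1.05% of all probes were. Of the 9 neutrophil genes 4 were called higher, Cxcr2, Csf3r, Mmp9 and Il1b, where 1.73% of all probes were. Of 7 smooth muscle genes 0 were higher in TSP-1-/- mice after AOM/DSS (list median -0.378), but their array medians overlapped between genotypes. The median of 11 pancreatic enzyme genes was 6.36 on TSP-1-/- AOM/DSS replicate 3, 1.3 on TSP-1-/- water replicate 1 and at most 0.065 elsewhere. Hoxb6, whose level marks position along the colon, was -3.44 on WT AOM/DSS replicate 1, beside -3.43 to -2.60 on the TSP-1-/- arrays, and 1.28 and 0.98 on the other WT arrays. Hoxb13, which also marks position, was 0.43 on WT AOM/DSS replicate 1, beside -0.06 to 0.78 on the TSP-1-/- arrays, and -6.33 and -5.89 on the other WT arrays. On water Hoxb13 was -3.68 on WT replicate 3 and -4.24 on TSP-1-/- replicate 3, and 1.52 to 2.48 on the other 4 arrays. The part of these cell and position differences in the values below was not tested.

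Thbs1 itself read higher in TSP-1-/- colon after AOM/DSS. The WT arrays gave 0.27, -0.16 and -0.07 and the TSP-1-/- arrays 0.81, 0.85 and 0.93. The groups did not overlap, and the mean difference was 0.85 ± 0.28 (limma SE, n = 3 per group), a 1.8-fold difference. On water the WT values were -1.36, -0.99 and -0.47 and the TSP-1-/- values -0.0015, -0.96 and -1.15, which overlapped. The water difference of 0.24 rested on TSP-1-/- replicate 1 and became -0.11 without it.

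**Figure D1:**
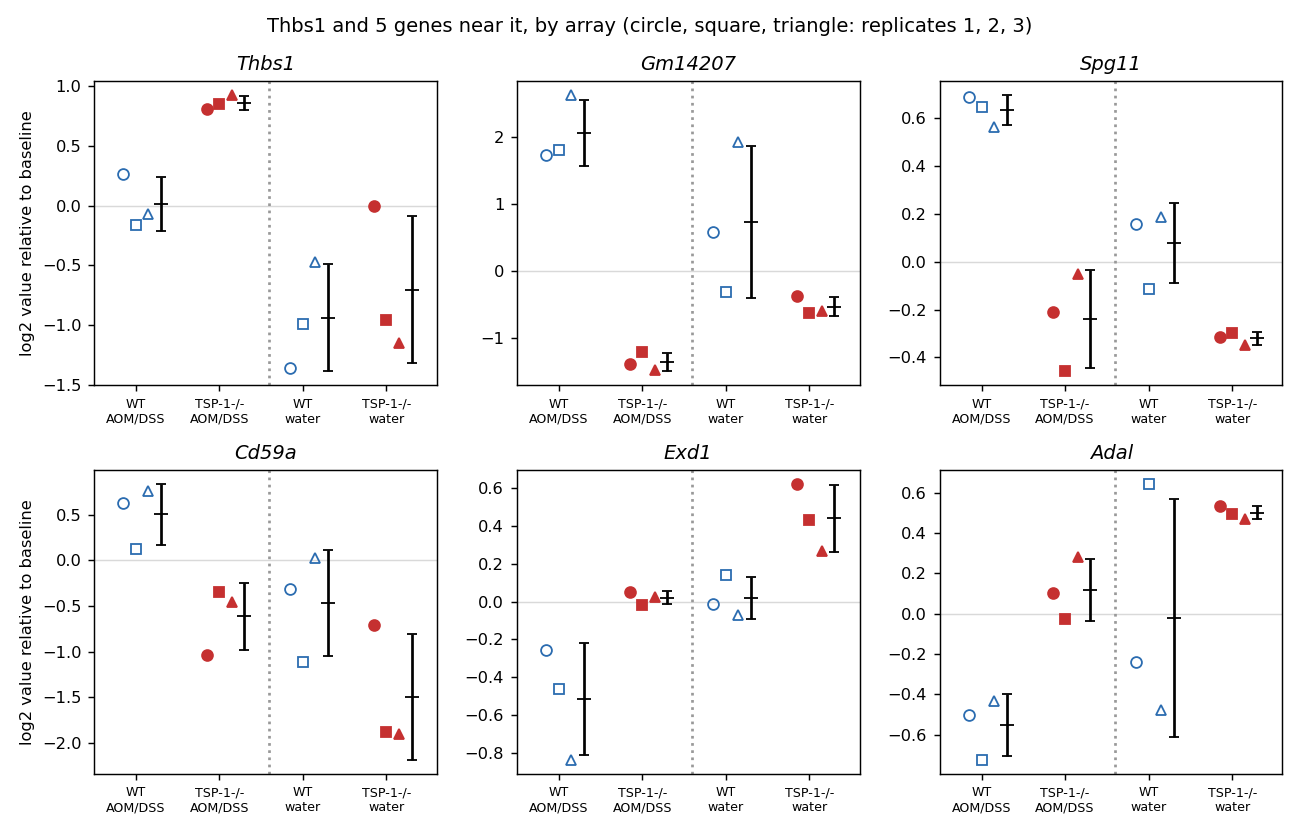
Log2 value relative to the probe's baseline (vertical axis) of Thbs1 and the 5 genes on each array, for WT (open blue) and TSP-1-/- (filled red) mice after AOM/DSS and on water, with circles, squares and triangles for replicates 1, 2 and 3 and black bars for the mean and SD of 3 arrays. The dotted line separates array sets with different baselines. All 5 genes separate by genotype after AOM/DSS, where 20.2% of all probes did so upwards and 10.7% downwards. Gm14207, Spg11 and Exd1 also separate on water, where the shares were 2.29% and 2.88%. The genes were chosen by these differences, so nothing is read from the separation.

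Gm14207 had the largest difference. After AOM/DSS the WT arrays read 1.73, 1.80 and 2.62 and the TSP-1-/- arrays -1.39, -1.21 and -1.47. Every TSP-1-/- array lay at least 2.95 log2 units below the lowest WT array. The mean difference was -3.41 ± 0.43 (limma SE, n = 3 per group), a 10.7-fold lower value. On water the WT arrays read 0.58, -0.32 and 1.93 and the TSP-1-/- arrays -0.38, -0.63 and -0.59. All 3 TSP-1-/- arrays were again lower, but the nearest WT array, replicate 2, stood only 0.06 above them. The water difference was -1.26 ± 0.43, 2.4-fold, and it became -0.66 without WT replicate 3, 1 of the 2 water arrays with low Hoxb13. The WT water mice also varied most, with an SD of 1.13 against 0.14 in the TSP-1-/- mice of that set.

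Spg11 was the second gene that was lower in TSP-1-/- mice of both sets without overlap. The WT arrays after AOM/DSS read 0.69, 0.65 and 0.57 and the TSP-1-/- arrays -0.21, -0.46 and -0.05. The gap between the nearest arrays was 0.62 and the mean difference -0.87 ± 0.13 (limma SE, n = 3 per group), or 1.83-fold. On water the WT values were 0.16, -0.11 and 0.19, and the TSP-1-/- values lay close together at -0.31, -0.30 and -0.35. The groups stood 0.18 apart and differed by -0.40 ± 0.13, or 1.32-fold.

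Cd59a was lower in TSP-1-/- mice by nearly the same amount in both sets. After AOM/DSS the WT arrays read 0.63, 0.12 and 0.76 and the TSP-1-/- arrays -1.04, -0.35 and -0.45, with 0.47 between the nearest arrays. The mean difference was -1.12 ± 0.36 (limma SE, n = 3 per group), 2.17-fold. On water the WT arrays read -0.32, -1.11 and 0.03 and the TSP-1-/- arrays -0.70, -1.89 and -1.91. TSP-1-/- replicate 1, the array with raised neutrophil and pancreatic genes, lay within the WT range, and the other 2 lay below all WT arrays. The water difference was -1.03 ± 0.36, 2.04-fold, and with 1 water array left out it ran from -1.43 (without TSP-1-/- replicate 1) to -0.79 (without WT replicate 3).

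Exd1 was higher in TSP-1-/- mice of both sets without overlap. The WT arrays after AOM/DSS read -0.25, -0.46 and -0.84, and the TSP-1-/- arrays 0.05, -0.02 and 0.02 with an SD of only 0.03. The nearest arrays were 0.24 apart, and the means differed by 0.54 ± 0.16 (limma SE, n = 3 per group), 1.45-fold. On water the WT arrays read -0.01, 0.14 and -0.07 and the TSP-1-/- arrays 0.62, 0.43 and 0.27. The groups stood 0.13 apart and differed by 0.42 ± 0.16, 1.34-fold. The median of 6 germ cell genes was between -0.306 and 0.0992 on all 12 arrays, and neither pair of genotypes separated in it.

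Adal was also higher in TSP-1-/- mice, without overlap only after AOM/DSS. There the WT arrays read -0.50, -0.72 and -0.43 and the TSP-1-/- arrays 0.10, -0.03 and 0.28. The gap was 0.40 and the mean difference 0.67 ± 0.23 (limma SE, n = 3 per group), 1.59-fold. On water the TSP-1-/- arrays read 0.53, 0.50 and 0.47, while the WT arrays were spread over -0.24, 0.64 and -0.48. WT replicate 2 read above every TSP-1-/- array. The water difference of 0.52 ± 0.23, 1.44-fold, became 0.86 without WT replicate 2 and 0.30 without WT replicate 3.

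By the direction of their differences the genes fell into 3 that were lower (Gm14207, Spg11 and Cd59a) and 2 that were higher (Exd1 and Adal) in TSP-1-/- mice. Of the 5 only Gm14207 was called in AOM/DSS, where 1.05% of all probes were called lower, and none was called on water, where the share was 0.0%. The mean differences of Gm14207 and Cd59a were at least 2-fold in both sets, and those of Exd1, Adal and Spg11 were not. With 1 array left out, the 2-fold size was lost on water for Gm14207 (-0.66 without WT replicate 3) and for Cd59a in both sets (-0.91 after AOM/DSS without TSP-1-/- replicate 1 and -0.79 on water without WT replicate 3). All 5 did not overlap after AOM/DSS, where 20.2% of probes did so upwards and 10.7% downwards. On water 3 did not overlap, where the shares were 2.29% and 2.88%. The same way in both sets held for 3 genes and for 248 of 28815 probes (0.861%), higher in TSP-1-/- mice for 0.517% and lower for 0.344%. Since the genes were picked on these contrasts, nothing is read from these counts.

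The sizes in the 2 sets differed from gene to gene. The AOM/DSS difference was 2.7 times the water difference for Gm14207 and 2.2 times for Spg11. It was 1.28 times for Exd1, 1.28 times for Adal and 1.08 times for Cd59a. With 1 array left out, the ratio ran from 1.91 to 5.14 for Gm14207 and from 1.77 to 2.55 for Spg11. It ran from 0.898 to 1.64 for Exd1, from 0.782 to 2.26 for Adal and from 0.782 to 1.42 for Cd59a. These ranges of Gm14207 and Spg11 lay above those of Exd1 and Cd59a, and the rest of the order is not settled. Whether any of these sizes differed between sets was not tested, because both contrasts chose the genes.

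**Figure D2:**
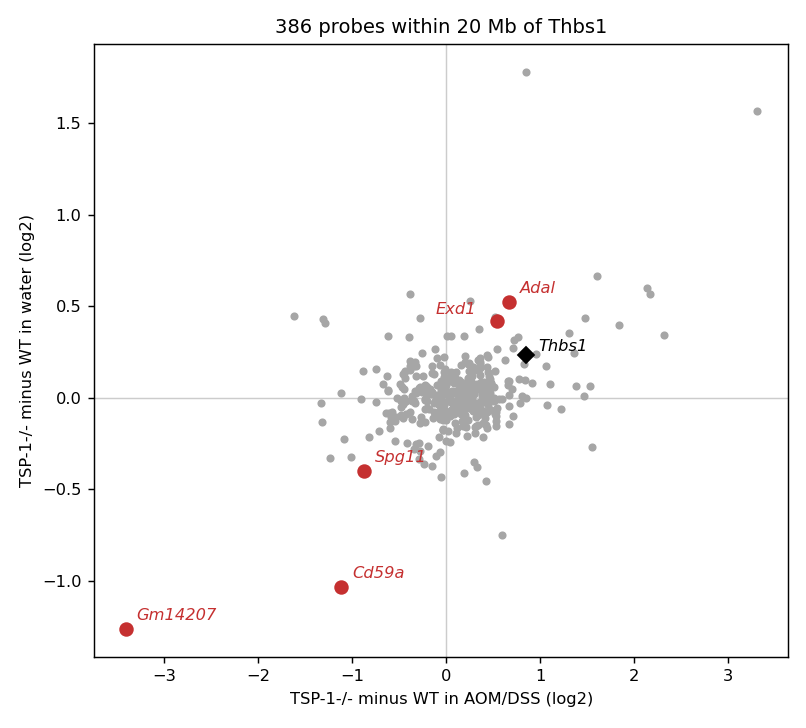
TSP-1-/- minus WT difference after AOM/DSS (horizontal axis, log2) against that on water (vertical axis, log2) for each of 386 probes of genes within 20 Mb of Thbs1, with the 5 genes in red and Thbs1 as a black diamond. Gm14207 lies at -3.41 and -1.26 and Cd59a at -1.12 and -1.03, while Exd1 and Adal lie close together in the upper right.

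By the size of the difference among the 386 probes within 20 Mb of Thbs1, Gm14207 ranked 1 in AOM/DSS and 3 on water. Cd59a ranked 23 and 4, Spg11 33 and 23, Adal 53 and 11, and Exd1 77 and 19. Each of the 5 ranked higher on water than after AOM/DSS except Gm14207. High ranks follow from the choice of the genes by these same differences, so nothing is read from them. Values just outside the choice were close to those inside it. Gchfr, whose product regulates tetrahydrobiopterin synthesis, lies 1.06 Mb from Thbs1 and was lower without overlap in both sets, by -0.32 and -0.25. Tgm7, a transglutaminase gene 2.98 Mb from Thbs1, was higher without overlap in both, by 1.31 in AOM/DSS and 0.35 on water. Tgm7 was called in AOM/DSS (adjusted p = 0.0184 in limma), but not without WT AOM/DSS replicate 3 or with the 6 AOM/DSS arrays fitted alone. Catsper2 (1.36 and 0.25), Snap23 (0.63 and 0.21) and Caprin1 (0.29 and 0.17) were also higher without overlap in both sets.

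Most genes around Thbs1 were not called, as held for the whole array, where 2.78% of probes were called in AOM/DSS. Of the 10 genes nearest to Thbs1, 5 on each side, only Gpr176, an orphan receptor gene, was called in AOM/DSS (1.06 higher, adjusted p = 0.029 in limma), and its water difference was 0.17. Gpr176 was called in 11 of 18 alternative settings. It was not called without TSP-1-/- AOM/DSS replicate 3, WT AOM/DSS replicate 2 or WT AOM/DSS replicate 3. Nor was it called after quantile normalization of the 12 arrays again or within each set. The call was also lost with each array centred on its median and with the 6 AOM/DSS arrays fitted alone. Rasgrp1, a Ras activator of lymphocytes, gave 1.38 with an adjusted p of 0.0814 in limma. Fsip1, the nearest of these at 0.0184 Mb, differed by 0.08 and -0.09 in the 2 sets. Within 20 Mb, 17 of the 380 other probes were called in AOM/DSS (4.47%), 10 higher and 7 lower, and 5 did not overlap in the same way in both sets (1.32%). Within 5 Mb these were 8 of 120 probes (6.67%) and 4 (3.33%), and on chromosome 2 beyond 20 Mb 31 of 1455 (2.13%) and 9 (0.619%). The count of 17 fell to 4 without WT AOM/DSS replicate 3, to 6 without TSP-1-/- AOM/DSS replicate 3 and to 11 without WT AOM/DSS replicate 2. On water 4 of the 380 probes had an unadjusted p under 0.05 (1.05%) and none was called.

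**Figure D3:**
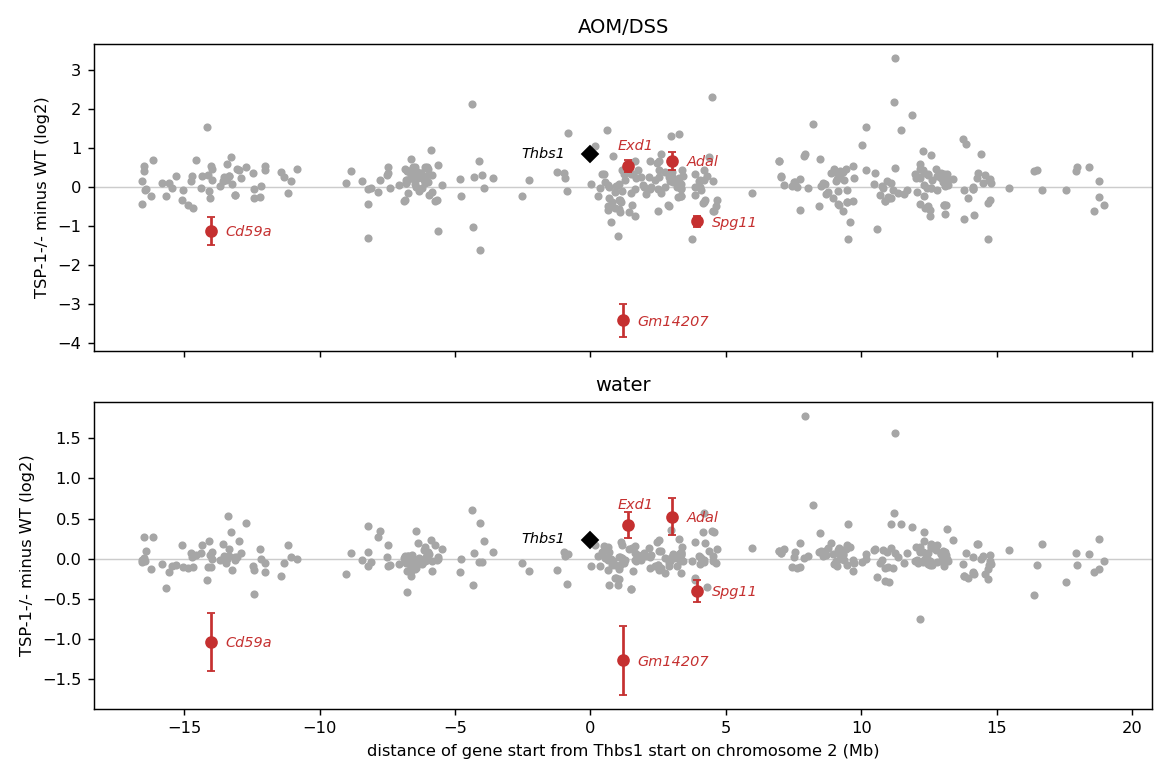
TSP-1-/- minus WT difference (vertical axis, log2) against the distance of each gene's start from that of Thbs1 (horizontal axis, Mb) after AOM/DSS (upper panel) and on water (lower panel), for genes within 20 Mb, with the 5 genes in red (bars, limma SE) and Thbs1 as a black diamond. Gm14207, Exd1, Adal and Spg11 lie from 1.21 to 3.94 Mb among many genes near 0, and Cd59a lies at -14.0 Mb.

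None of the nearest measured genes on either side of the 5 was called in either set. Over all probes 2.78% were called in AOM/DSS and 0.0% on water, so no call among so few genes says little. Dll4, which overlaps Gm14207, differed by 0.43 in AOM/DSS (adjusted p = 0.067 in limma) and by -0.01 on water, opposite in sign to the noncoding gene after AOM/DSS. Vps18 on its other side, a gene of endosome and lysosome fusion, differed by -0.10 in AOM/DSS. Chp1, a calcium-binding partner of sodium-proton exchangers that starts 79 bases from Exd1 on the opposite strand, differed by -0.63 in AOM/DSS (adjusted p = 0.0707 in limma) and by 0.12 on water. Lcmt2, a tRNA-modifying enzyme gene that overlaps Adal by 655 bases on the opposite strand, differed by 0.38 and 0.02. Dll4, Chp1 and Lcmt2 are transcribed from the strand opposite to their partner, and whether a probe of one gene also picks up its partner was not tested.

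On the sides of Spg11 lie Ctdspl2, a phosphatase-like gene, and Patl2. Both probes of Ctdspl2 were lower in TSP-1-/- mice on water without overlap, as Spg11 was, by -0.26 and -0.24 (adjusted p = 1.0 in limma for each), and their AOM/DSS differences were -0.19 and -7.31e-06, with overlap. Patl2, which ends 673 bases from Spg11 on the same strand, differed by 0.16 in AOM/DSS and 0.03 on water. Cd59b is the close paralog of Cd59a and lies 9.96 kb from it on the same strand. It differed by -0.29 in AOM/DSS (adjusted p = 0.304 in limma) and by 0.05 on water, with overlapping groups in both sets. Since the 2 paralogs are alike in sequence, a part of the signal of either probe may come from the other gene, and the probe sequences were not used here.

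**Figure D4:**
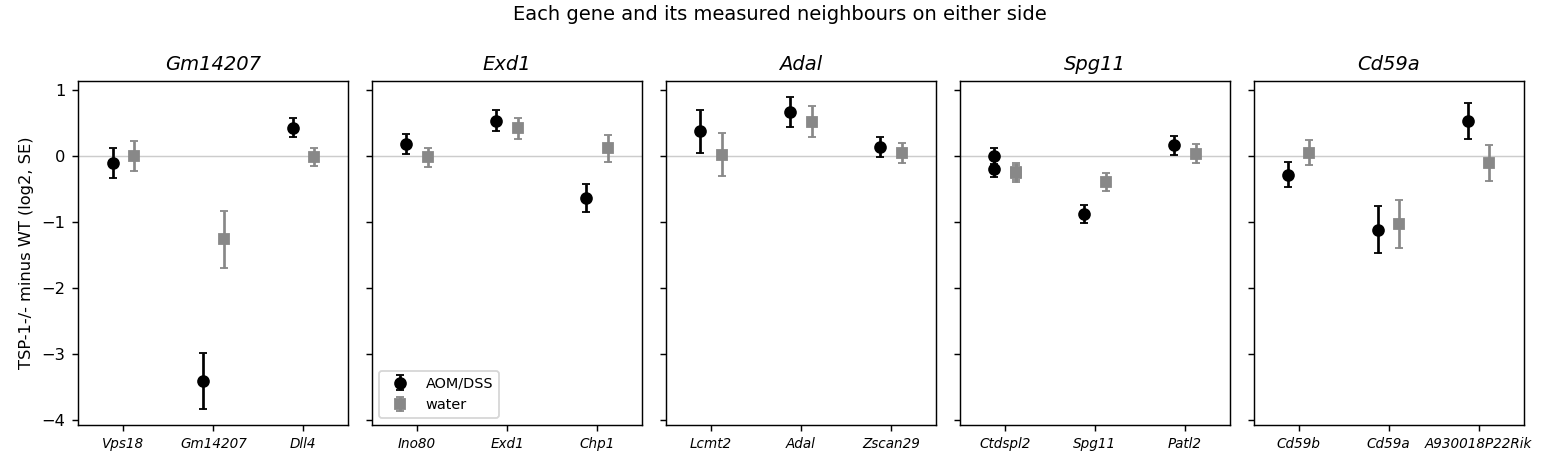
TSP-1-/- minus WT difference (vertical axis, log2, bars for limma SE) of each of the 5 genes (middle of each panel) and the nearest measured gene on either side, after AOM/DSS (black circles) and on water (grey squares). Ctdspl2 has 2 probes; Gm14207 stands at -3.41 between Vps18 at -0.10 and Dll4 at 0.43.

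Over the 12 arrays, with each probe centred within its array set, the 5 genes followed their directions. Gm14207 and Spg11 had a Pearson r of 0.916 and Gm14207 and Exd1 of -0.856, which the genotype differences largely set. Centred within each group, which removes those differences, the values were 0.301 and -0.529. Gm14207 and Adal had -0.729 and Gm14207 and Cd59a 0.647, while Exd1 and Cd59a were near 0 at 3.83e-05. Gm14207 varied most in the WT water mice, with an SD of 1.13 against 0.13 to 0.50 in the other groups. Its within-group values with Adal and Cd59a therefore lean mainly on those 3 arrays. All these correlations are descriptions over 12 arrays in 2 sets, and arrays of a set may share preparation.

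The probes whose pattern was most like each gene came from several chromosomes. For Gm14207 they were Rmdn3, a protein of contacts between mitochondria and endoplasmic reticulum (r = 0.957), Cln8 (0.947) and Nqo1, a quinone reductase (0.936). Rmdn3 lies 1.03 Mb from Thbs1 on chromosome 2 and was called lower in AOM/DSS (-1.24, adjusted p = 0.0146 in limma), with a water difference of -0.33, and was not called without WT AOM/DSS replicate 3. Nqo1 on chromosome 8 was also called lower (-1.56, adjusted p = 0.00987 in limma). Neither was called when the 6 AOM/DSS arrays were fitted alone. Likeness was measured with the genotype differences left in, so probes like Gm14207 were picked for being lower in TSP-1-/- mice. Their calls are therefore not a separate result. For Exd1 they were Caprin1 on chromosome 2 (0.94) and 2 probes of Hnrnpf (0.935 and 0.934), both genes of RNA-binding proteins. For Spg11 they were 2300009A05Rik (0.926), Gm14207 (0.916) and 1 of the probes of Scn2a (0.893). For Adal they were Fbl (0.87), A530040E14Rik (0.862) and Rgs16 (0.836), and for Cd59a they were Fam204a (0.909), Ptpn11 (0.846) and Rragc (0.842).

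The other genes of the pathways nearest to Cd59a, Adal, Exd1 and Spg11 were read from 4 lists. No list was made for Gm14207, a noncoding gene. Of 15 measured complement genes, 4 were called higher in TSP-1-/- mice after AOM/DSS and none lower, where 1.73% of all probes were called higher, with a list median of 0.936 against 0.127 over all probes. These were the complement inhibitor genes Cd46 (1.51), Cd55 (1.11) and Clu (2.59) and the protease gene Cfi (2.57), opposite in sign to Cd59a. The count of 4 was 1 (Cd46) without WT AOM/DSS replicate 3, 2 without TSP-1-/- AOM/DSS replicate 3, 7 without TSP-1-/- AOM/DSS replicate 2 and 0 when the 6 AOM/DSS arrays were fitted alone. Neutrophil genes were higher on the same arrays, as given above, and their part in these calls was not tested. On water none of the 15 was called and the list median was 0.116.

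Of 14 purine salvage and adenosine enzyme genes, the pathway nearest to Adal, only adenosine kinase, Adk, was called in AOM/DSS (-1.11), and the list median was -0.13. Adk was not called without TSP-1-/- AOM/DSS replicate 3, WT AOM/DSS replicate 2 or WT AOM/DSS replicate 3. None of 17 genes of the PIWI pathway was called (median 0.0449; Piwil4 alone without TSP-1-/- AOM/DSS replicate 2), including Tdrd12, a partner of EXD1 in that pathway, at 0.63. None of 16 genes of hereditary spastic paraplegia and lysosome reformation was called (median -0.0739), among them Zfyve26, the gene of the partner protein of spatacsin, at 0.43. On water no gene of these 3 lists was called in limma. Over all probes 2.78% were called in AOM/DSS and 0.0% on water, and at such shares lists of this size would hold few calls.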

How the data were processed

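RNA of 12 colons was read on Affymetrix MoGene 1.0 ST arrays. The authors deposited log2 values made with PLIER16 and quantile normalization, with a baseline stated as the median of 12 samples; the median of these 12 arrays was within 0.001 of 0 for 4.18% of probes, so AOM/DSS was not compared with water. The values were used as deposited. Groups came from sample titles and 0 columns were of no sample. The labels call the arrays of a group biological replicates. Their number limits the precision.

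Genotypes were compared with limma 3.58.1 in R 4.3.3 fitted to the 12 arrays together, each group having its own mean, and p-values were adjusted over all probes by Benjamini-Hochberg; the fit was tested on simulated data first, and 38 probes had no water values. Genes were named from 21789 probes with 1 symbol, 21698 of them placed on GRCm38.p6. Other named genes were the nearest to Thbs1 and to each gene, those alike in both pairs, the 3 probes with the highest correlation and up to 4 genes of each list. Members and lists were chosen with earlier results of these data known. Alternatives were other normalization, scaling, filter, samples, block, window and fold minimum. Counts of list genes, calls of single genes and ratios under these settings were added after seeing the data. Motifs, tables and figures were made with Python 3.11.15.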

Additional observations from a re-analysis of the deposited data

How the results depend on the processing

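The differences of the 5 genes kept their direction in all 150 recomputations, 15 settings for each gene and pair. Leaving out any of the 6 arrays of the other set cannot alter a difference, so those settings kept it by construction. The genes were also chosen for their direction in both pairs, so the count of 150 does not measure how firm that direction is. They moved by more than 1 SD in 4: Gm14207 in AOM/DSS was -4.63 when the 12 arrays were quantile normalized once more and -5.42 when each set was, Spg11 was -1.21 within each set in AOM/DSS and -0.52 on water over the 12 arrays. Leaving out 1 array gave -3.57 to -3.13 for Gm14207 in AOM/DSS and -1.79 to -0.66 on water. Thbs1 in AOM/DSS was 0.58 after normalization again, and its water difference reversed to -0.11 without TSP-1-/- water replicate 1 and reached 0.47 without WT water replicate 3. Gm14207 was called in AOM/DSS in all settings, with Cd59a and Spg11 added under normalization within each set. The genes were picked on this same contrast, so these calls are no test of them and nothing is read from them.

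The 802 calls in AOM/DSS were 183 after normalization of the 12 arrays again and 6 in a fit of the 6 arrays alone, and from 104 (without WT AOM/DSS replicate 3) to 1402 (without TSP-1-/- AOM/DSS replicate 2) with 1 array left out. The 17 calls within 20 Mb were 9 within 10 Mb, 8 within 5 Mb, 37 with no fold minimum, 7 after normalization again, 0 with the 6 arrays alone and 4 to 22 with 1 array left out. Water calls were 0 to 1 with 1 array left out, the 1 being Cxcl1 without WT water replicate 3. Probes not overlapping the same way in both sets went from 248 to between 308 and 1028 with 1 array left out, as smaller groups overlap less. The 4 complement calls, an alternative chosen after seeing the data, were 0 after normalization of the 12 arrays again, 2 within each set and 1 to 7 with 1 array left out. The cause of the other shifts was not tested.

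With the replicate number as a block, 803 probes were called in AOM/DSS, 0 on water and 19 within 20 Mb. Same-numbered arrays of the AOM/DSS pair correlated at -0.0421 to 0.0261 and those of the water pair at 0.0931 to 0.402, so the numbers were not taken as pairs, and not every water array correlated best with its own number.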
